A study of Drosophila melanogaster with 36 samples.

Results

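The data described here are the 6 libraries of sorted astrocyte-like glia of the fruit fly, 3 from flies at day 5 and 3 from flies at day 70, of 36 libraries in the series, chosen by their labels. The question was how gene expression of these cells differed between young and old brains. All flies were female and carried the GAL4 driver GMR86E01, which turns on a GFP reporter in astrocyte-like glia, so that the cells are those in which this driver was active at the age of dissection. For each replicate, brains were pooled and dissociated in the presence of actinomycin D, a blocker of new transcription, and living GFP+ cells were sorted. Both ages share the driver, the reporter, the dissociation and the sort, so these cannot be compared with their absence. RNA was copied with Smart-seq3, a full-length method with PCR amplification that starts from poly(A) tails. The same brains also gave unsorted suspensions, called whole brain, with 3 libraries per age. Ensheathing glia were sorted in the same way from the drivers GMR56F03 and GMR10E12, with 12 libraries over both ages, and driver line and glia type cannot be told apart in any comparison with them.

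Astrocyte-like glia are the glia of the fly neuropil. Their branched processes lie among synapses, take up glutamate and GABA after release and convert them to other compounds, and they respond to dopamine, octopamine and tyramine through calcium signals. They need fibroblast growth factor signaling through the receptor Heartless to grow into the neuropil, are joined by gap junctions, and can engulf neuronal debris.

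Total counts of replicates 1, 2 and 3 were 1514977, 3903428 and 13611810 at day 5 and 5111542, 10953086 and 17060052 at day 70. Values per library are given in this order throughout. Between 7970 and 9926 genes were detected at day 5 and between 9683 and 11149 at day 70. Genes of the mitochondrial genome took 13.4% to 16.04% of the counts at day 5 and 7.72% to 12.3% at day 70. The 10 most abundant genes took 23.6% to 25.0% and 12.3% to 17.7%. The TMM factors, which correct for such differences in composition, were 0.766 to 0.799 at day 5 and 1.02 to 1.05 at day 70. Levels are given as normalized CPM, counts relative to the total of the kept genes times these factors over all 36 libraries, and not divided by gene length, so they are compared between ages and not between genes. A level of 3 counts, taken as the floor, was 0.276 to 2.50 CPM at day 5 and 0.171 to 0.576 CPM at day 70, and this covers counting error only. Pearson's r of log2 levels across genes, which are not independent replicates, was 0.877 to 0.925 between day 5 replicates, 0.896 to 0.943 between day 70 replicates and 0.794 to 0.884 between ages.

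The labelled cell type was checked against a list of 8 astrocyte markers. Their summed level was 46259 to 48516 CPM at day 5, which was 11.1 times that of whole brain from the same flies, and 10271 to 16166 CPM at day 70, which was 6.21 times that of whole brain. The glial gene repo (FBgn0011701) had 563, 591 and 613 CPM at day 5 and 264, 176 and 227 CPM at day 70, against means of 46.8 and 44.8 CPM in whole brain. The neuronal gene elav (FBgn0260400) had 7.50, 31.1 and 36.0 CPM at day 5 and 70.3, 72.4 and 77.0 CPM at day 70, against 337 and 327 CPM in whole brain. Its old libraries all lay above the young ones, but the difference did not pass the test (log2 fold change 1.52, SE 0.49, adjusted p = 0.106). Exons of elav and repo overlap other genes on the opposite strand, and since the use of strand in counting is not stated, reads of such pairs cannot be told apart. Astrocyte markers and repo were thus above whole brain at both ages and elav below it. Summed markers of other glia were above whole brain as well. Those of ensheathing glia were at 4.25 times its level at day 5 and 2.81 times at day 70, and those of cortex glia at 6.72 and 3.37 times. The same limit on strand holds for AANAT1, Obp44a, Gdh, Gabat, pros, ogre, crq, Pxn, Eno, NtR, CG17574, CG9813, Myc, Trxr-1, Treh and Diap1.

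With age, all 8 astrocyte markers fell, among them transmitter transporters, and so did members of the Heartless pathway, glial gap junction genes and 9 of 11 basement membrane genes. Neuron markers (14 of 37), neuropeptide precursors (6 of 26) and stress genes (5 of 29) were among those that rose. At a Benjamini-Hochberg adjusted p below 0.05, the quasi-likelihood test of edgeR called 240 of 8585 genes as risen (2.80%) and 313 as fallen (3.65%). The median log2 fold change, day 70 over day 5, was 2.09 among genes that rose, -1.52 among those that fell and 0.11 over all genes tested. In 16.6% of the tested genes all 3 old libraries lay above all 3 young ones, and in 13.5% all lay below. On total counts without TMM factors the median of all genes moved to 0.50 and the split to 613 risen and 196 fallen, so directions below are relative to TMM, and lists whose direction turns are named. More genes rose than fell also with DESeq2 (651 and 573), with the 18 sorted libraries in 1 fit (888 and 746) and with all 36 (1448 and 778). Without day 5 replicate 3 the split was 277 risen and 235 fallen. With 1 library left out the count of called genes ranged from 201, without day 70 replicate 3, to 512, without day 5 replicate 3. It was 287 without day 5 replicate 1, 226 without day 5 replicate 2, 472 without day 70 replicate 1 and 316 without day 70 replicate 2. Of the genes that fell, 130 of 313 were called in each of these 6 fits, and of those that rose 41 of 240, and no called gene changed direction in any alternative.

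**Figure D1:**
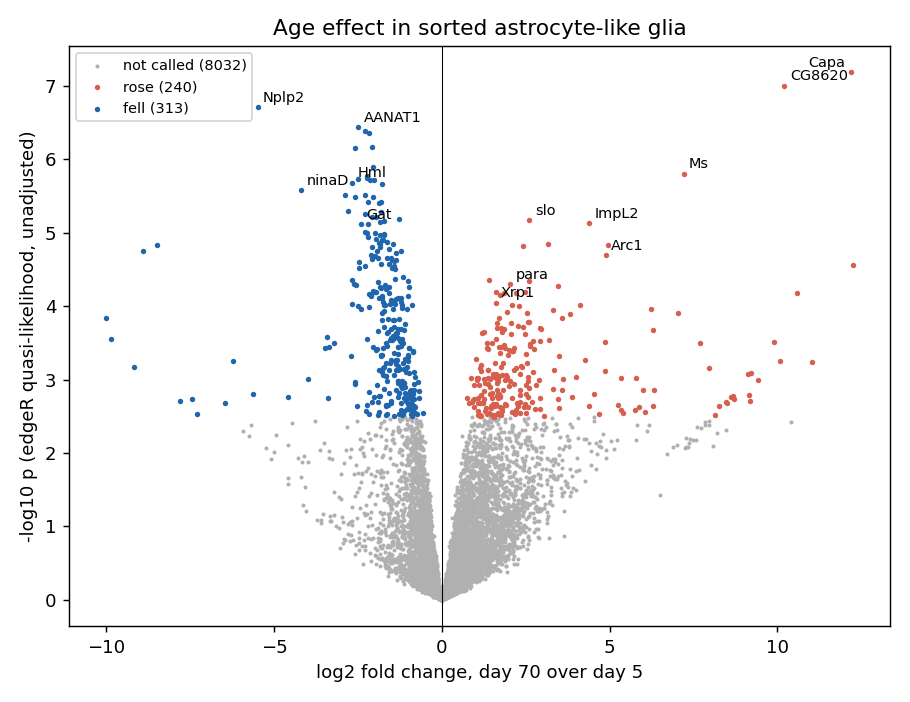
Each point is 1 of 8585 genes, with the log2 fold change of day 70 over day 5 on the x axis and -log10 of the unadjusted p of edgeR's quasi-likelihood test on the y axis. Orange marks the 240 genes that rose and blue the 313 that fell at an adjusted p below 0.05. The median was 2.09 among genes that rose, with a largest value of 12.26, and -1.52 among those that fell, with a lowest value of -9.996. Fitted sizes of genes with no count at 1 age are not bounds.

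All 8 astrocyte markers fell. The GABA transporter gene Gat (FBgn0039915, chromosome 4, 629691 to 635350) had 10795, 10424 and 9595 CPM at day 5 and 2622, 1260.0 and 1925 CPM at day 70, and its ages did not overlap (log2 fold change -2.40, SE 0.25, adjusted p = 0.00177). The gene alrm (astrocytic leucine-rich repeat molecule, chromosome arm 3R, 25381065 to 25382781), the classic marker of these cells, had 8425, 8748 and 7489 CPM at day 5 and 2097, 1252 and 2026 CPM at day 70 (log2 fold change -2.19, SE 0.21, adjusted p = 0.00133). Eaat1 (chromosome arm 2L, 9333567 to 9341925), the main glutamate transporter of fly glia, had 4733, 4801 and 5662 CPM at day 5 and 1369, 887 and 1149 CPM at day 70 (log2 fold change -2.15, SE 0.19, adjusted p = 0.00109). The glutamine synthetase gene Gs2, which turns glutamate into glutamine, had 20132, 19986 and 19265 CPM at day 5 and 8869, 5764 and 7014 CPM at day 70 (log2 fold change -1.45, SE 0.16, adjusted p = 0.00233). Young libraries lay close together for these genes, while day 70 replicate 2 was the lowest old library for each of them. AANAT1, which acetylates dopamine and serotonin, had 771, 833 and 723 CPM at day 5 and 146, 127 and 136 CPM at day 70 (log2 fold change -2.50, SE 0.18, adjusted p = 0.000628). The remaining 3 markers fell by 1.72 (ebony, which conjugates amines to beta-alanine), 2.29 (wun2, a lipid phosphate phosphatase) and 1.35 (Obp44a) on the log2 scale. The call of Obp44a was lost on total counts and, with an adjusted p of 0.0769, without day 5 replicate 2.

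Over the wider list of transmitter uptake and recycling genes, 7 of 17 tested members fell and none rose, with a median of -0.68. Besides Gat, Eaat1, Gs2, AANAT1 and ebony these were inebriated, a transporter of the neurotransmitter transporter family (-1.20), and Ssadh, which acts in the breakdown of GABA (-0.91, adjusted p = 0.0475). The call of Ssadh was lost with any 1 library left out (adjusted p up to 0.141). Not every route of transmitter metabolism moved down. Of the 17 genes 4 had a positive estimate, the largest 4.00, and 2 of these had an unadjusted p below 0.05. DESeq2 called 1 as risen and 9 as fallen, and on total counts 2 rose and 6 fell. Gs1, the second glutamine synthetase gene, had 106, 102 and 103 CPM at day 5 and 139, 124 and 141 CPM at day 70 (log2 fold change 0.39, SE 0.20, adjusted p = 0.290), and Gdh, glutamate dehydrogenase, had 93.3, 109 and 149.8 CPM at day 5 and 257, 173 and 189 CPM at day 70 (log2 fold change 0.82, SE 0.26, adjusted p = 0.103). Both had every old library above every young one without passing the test. The glutamate transporter gene Eaat2 changed by -0.50 (adjusted p = 0.297) and the GABA transaminase gene Gabat by -0.61 (adjusted p = 0.0855).

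**Figure D2:**
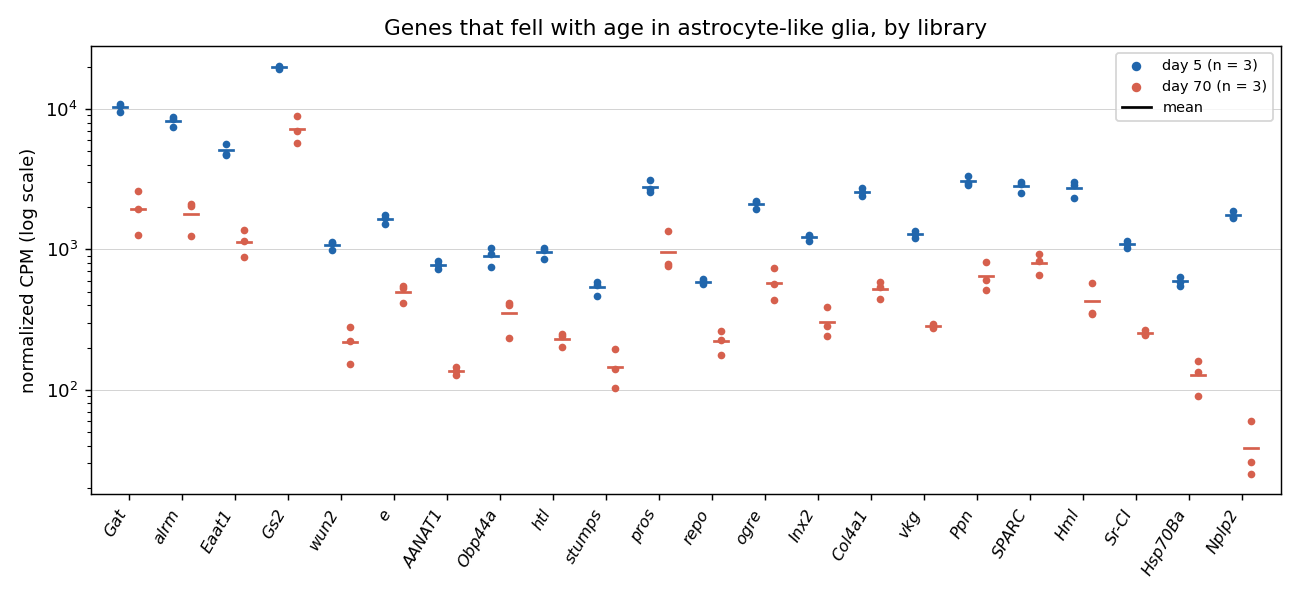
Normalized CPM on a log axis of 22 genes that fell, in each of 3 libraries at day 5 (blue) and 3 at day 70 (orange), with the mean as a line. In every gene shown all 3 old libraries lie below all 3 young ones, as for Gat, with 9595 to 10795 CPM at day 5 and 1260.0 to 2622 CPM at day 70. The genes were picked among called ones, and the leading fallers also for this separation.

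Of 13 tested genes of glial fate and FGF receptor signaling, 5 fell and none rose (median -0.85). The receptor gene htl (heartless, chromosome arm 3R, 18045216 to 18052984) had 853, 983 and 1031 CPM at day 5 and 244, 203 and 249 CPM at day 70 (log2 fold change -2.03, SE 0.18, adjusted p = 0.00109). Its adaptor stumps fell by 1.86, and the ETS transcription factor pnt (pointed), which acts in receptor tyrosine kinase pathways, by 1.10. The homeodomain gene prospero (pros), kept in adult astrocyte-like glia, had 3141, 2706 and 2543 CPM at day 5 and 1349.9, 785 and 761 CPM at day 70, and repo fell by 1.40. Without day 70 replicate 3 the calls of pros (adjusted p 0.0561) and pnt (0.100) were lost, and pnt was also lost without day 70 replicate 2 or any day 5 library and on total counts.

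Gap junction and ion transport genes moved in both directions, with 4 of 13 falling and 1 rising. The innexin genes ogre and Inx2, which build the gap junctions of fly glia, fell by 1.85 and 1.99. The inward rectifier potassium channel gene Irk2 fell by 1.36 and nrv2, a sodium pump beta subunit found in glia, fell by 1.503. In contrast shakB, an innexin of electrical synapses between neurons, had 13.3, 16.7 and 26.0 CPM at day 5 and 122, 118 and 81.4 CPM at day 70 (log2 fold change 2.49, SE 0.34, adjusted p = 0.00534). Among 17 neuromodulator receptor and calcium genes none fell and 1 rose, calmodulin (Cam), with 112, 70.9 and 202 CPM at day 5 and 452, 541 and 532 CPM at day 70 (log2 fold change 1.99, SE 0.35, adjusted p = 0.0144). The call of Cam was lost without day 5 replicate 1 or without day 70 replicate 3 (adjusted p up to 0.0631).

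Basement membrane genes fell together, 9 of 11 tested members, with a median of -2.18. The basement membrane is a sheet of secreted matrix on the surface of tissues, and collagen IV is its main scaffold. The collagen IV genes Col4a1 (chromosome arm 2L, 5029609 to 5037279) and vkg (chromosome arm 2L, 5012144 to 5028191), neighbors on chromosome arm 2L, had 2544, 2397 and 2723 CPM at day 5 and 443, 537 and 588 CPM at day 70 and 1297, 1207 and 1359 CPM at day 5 and 276, 296 and 284 CPM at day 70. Their log2 fold changes were -2.28 (SE 0.17, adjusted p = 0.000628) and -2.16 (SE 0.16, adjusted p = 0.000628). Papilin (Ppn) fell by 2.24, the collagen-binding protein gene SPARC by 1.81 and the laminin gene LanB1 by 2.30. These 5 genes were named because they were called, and Col4a1 and vkg, for example, are among the leading fallers chosen without overlap between ages. The separation of their ages is thus no added result. The list as a whole summed to 11329 to 12412 CPM at day 5 and 2595 to 3183 CPM at day 70, a 4.05-fold drop, against a 1.18-fold drop in whole brain.

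Genes that mark hemocytes, the blood cells of the fly, fell in parallel. Of 12 markers all had a lower estimate at day 70 and 7 passed the test, with a median of -1.75. Hemolectin (Hml, chromosome arm 3L, 13846054 to 13860001), a clotting protein gene, had 3040.4, 2323 and 2894 CPM at day 5 and 355, 349 and 577 CPM at day 70 (log2 fold change -2.68, SE 0.24, adjusted p = 0.00110). The scavenger receptor gene Sr-CI had 1090.4, 1029 and 1143 CPM at day 5 and 247, 265 and 251 CPM at day 70 (log2 fold change -2.08, SE 0.16, adjusted p = 0.000765). The CD36-like receptor croquemort (crq) fell by 1.37, the phagocytosis receptor NimC1 by 1.87 and peroxidasin (Pxn), which is on the matrix list too, by 2.18. PPO1 and PPO2, prophenoloxidase genes of the crystal cell type of hemocyte, were chosen after their values were seen. PPO1 had 5786, 1029 and 1299 CPM at day 5 and 0, 43.2 and 2.11 CPM at day 70 (log2 fold change -7.45, SE 1.67, adjusted p = 0.0362), and PPO2 had 7944, 1245 and 1344 CPM at day 5 and 4.03, 259 and 12.8 CPM at day 70 (adjusted p = 0.0844), with the highest young value of both in day 5 replicate 1. The call of PPO1 was lost without day 70 replicate 3 or any day 5 library (adjusted p up to 0.106). Summed over the list, the level was 7909 to 20338 CPM at day 5 and 1543 to 1584 CPM at day 70, a 7.99-fold drop, and no marker was at 0 in a whole group. PPO1 and PPO2 made up most of the sum of day 5 replicate 1, and the other 10 markers summed to 5635 to 6607 CPM at day 5 and 1255 to 1569 CPM at day 70, a 4.30-fold drop. Hemocyte markers were 20.7 times the whole brain level at day 5 and 5.36 times at day 70, while in whole brain itself they dropped 2.07-fold. Without PPO1 and PPO2 these values were 16.8 and 5.24 times, with a 1.34-fold drop in whole brain. Hemocytes are known to make collagen IV, peroxidasin and papilin. The hemocyte list moved with the basement membrane genes in the same libraries, and its part in their drop, or in that of other genes that fell, was not tested.

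**Figure D3:**
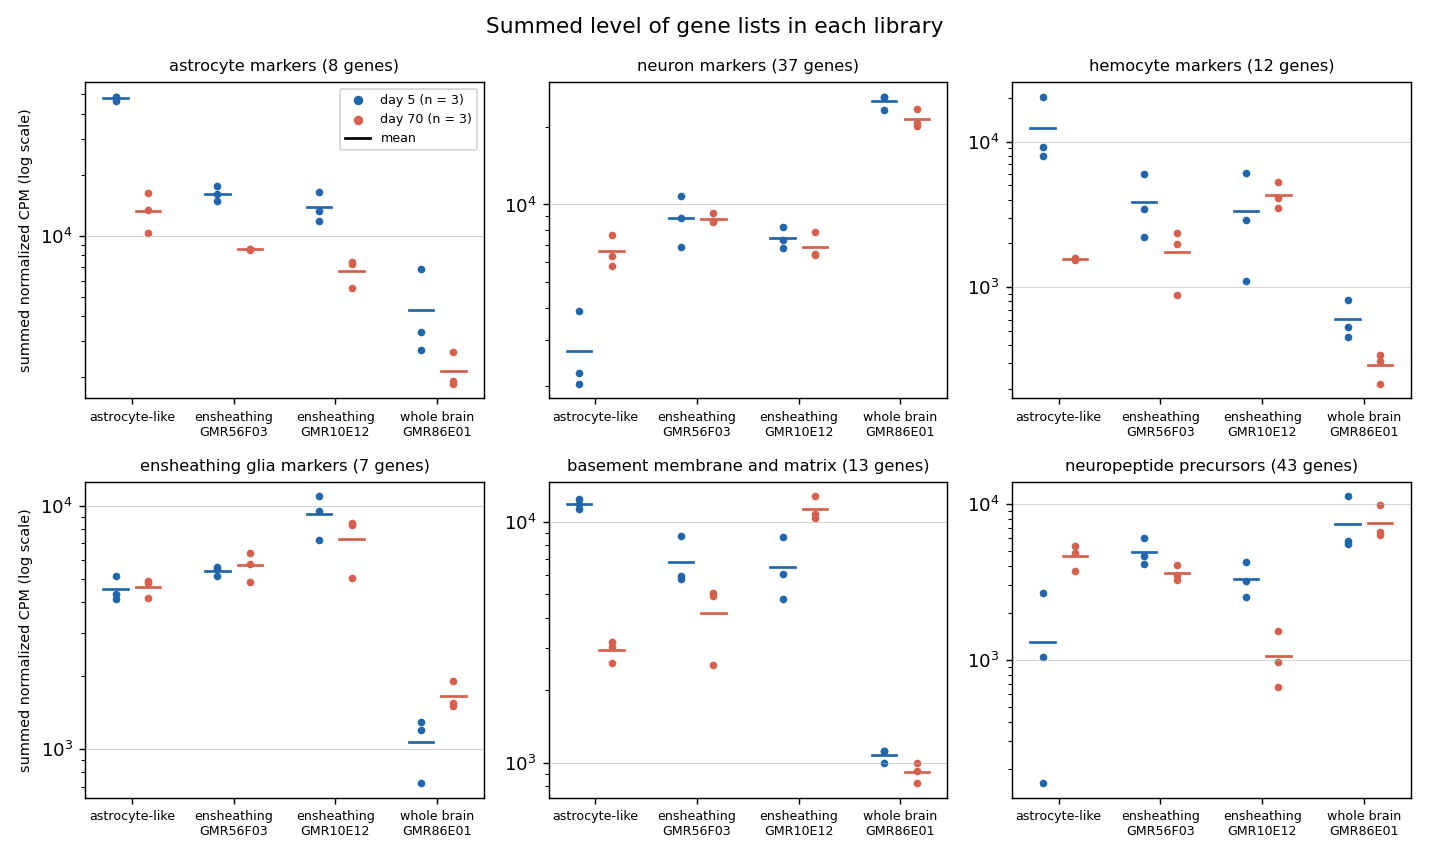
Summed normalized CPM (log axis) of 6 gene lists in each library of astrocyte-like glia, ensheathing glia of both drivers and GMR86E01 whole brain, at day 5 (blue) and day 70 (orange), with the mean of 3 libraries as a line. In astrocyte-like glia astrocyte markers drop from 46259 to 48516 CPM to 10271 to 16166 CPM and hemocyte markers from 7909 to 20338 to 1543 to 1584 CPM, while neuron markers go up from 2033 to 3875 to 5793 to 7657 CPM.

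Of 21 engulfment genes, 2 fell and none rose. These were NimC1 and myoblast city (mbc), part of the Rac activator that remodels actin around a target, which had 851, 916 and 905 CPM at day 5 and 334, 246 and 277 CPM at day 70 (log2 fold change -1.63, SE 0.18, adjusted p = 0.00233). The engulfment receptor gene drpr (Draper), chosen after its values were seen, had 421, 433 and 455 CPM at day 5 and 308, 261 and 237 CPM at day 70, lower in every old library without passing the test (log2 fold change -0.69, SE 0.19, adjusted p = 0.0661). On total counts the median of this list turned from -0.28 to 0.11. Lysosomal protease and membrane genes fell by less, CtsB1 by 0.87, Lamp1 by 0.79 and Cp1 by 0.70, and were 3 of 28 tested genes of autophagy and lysosomes, with no gene rising. All 3 calls were lost on total counts, where the median of the list turned from -0.34 to 0.047, and each was lost without day 70 replicate 3 or without either of day 5 replicates 1 and 2 (adjusted p up to 0.106 for Cp1, 0.107 for Lamp1 and 0.0799 for CtsB1).

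Among detoxification genes, 9 of 45 cytochrome P450 genes fell and none rose by the quasi-likelihood test of edgeR (median -0.69), and of 30 glutathione S-transferase genes 3 fell and none rose (median 0.07). At an unadjusted p below 0.05, 4 of the former and 3 of the latter had a positive change, DESeq2 called 2 of each family as risen, and on total counts 1 of each was called as risen, beside 5 and 2 that fell. The count of 9 was 2 without any of day 5 replicate 1, day 5 replicate 2 and day 70 replicate 3, and 3 without day 70 replicate 2. Cyp6a8 had 11.7, 12.0 and 22.6 CPM at day 5 and 0, 0 and 0 CPM at day 70, that is 296 counts at day 5 and none at day 70, which puts it at least 224-fold lower when the floor of 3 counts is taken over the group. Cyp6a23 fell by 1.35, Cyp6a22 by 1.82, Cyp12a4 by 1.32 and Cyp9f2 by 0.98, and GstD3 by 1.79. Of these 5, the calls of Cyp6a22, Cyp12a4 and Cyp9f2 were lost without day 70 replicate 3 (adjusted p 0.0767, 0.100 and 0.0757) and without day 5 replicates 1 or 2, the first 2 of them also without day 70 replicate 2. Among UDP-glycosyltransferase genes 2 of 17 rose and 2 fell. One of the risers, Ugt50B3, had no count at day 5 and 341 at day 70, at least 50.0-fold higher, and its call was lost without any 1 library other than day 5 replicate 1. An odorant-binding protein gene, Obp83cd, had 71.6, 81.3 and 59.9 CPM at day 5 and 0, 0.521 and 0 CPM at day 70 (log2 fold change -8.48, SE 0.97, adjusted p = 0.00233), and its exons overlap Obp83ef on the opposite strand.

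Peptidases that can cut neuropeptides fell in 6 of 28 tested genes and rose in none, with a median of -0.14 that turned to 0.25 on total counts. At an unadjusted p below 0.05, 5 had a positive and 11 a negative change. DESeq2 called 3 as risen and 10 as fallen, and on total counts 1 rose and 4 fell. Ance-5, a relative of angiotensin-converting enzyme, had 939, 832 and 892 CPM at day 5 and 220.1, 160.2 and 184 CPM at day 70 (log2 fold change -2.23, SE 0.19, adjusted p = 0.00109). The neprilysin-like genes Nepl21 and Nepl19 fell by 2.69 and 3.20. Further genes of the 15 fallers leading by adjusted p were Nplp2, NtR, CG42369, CG17574 and ninaD. The neuropeptide-like precursor gene Nplp2 (chromosome arm 3L, 13356376 to 13357223) had 1690.2, 1879 and 1686 CPM at day 5 and 25.2, 59.6 and 30.7 CPM at day 70 (log2 fold change -5.49, SE 0.37, adjusted p = 0.00056). The study describes the product of Nplp2 as an exchangeable apolipoprotein. It also reports that Nplp2 had the strongest fall with age in GMR56F03 ensheathing glia, so a fall is not particular to astrocyte-like glia. The scavenger receptor gene ninaD, needed for uptake of carotenoids, had 292, 204 and 285 CPM at day 5 and 11.1, 9.11 and 21.9 CPM at day 70 (log2 fold change -4.19, SE 0.38, adjusted p = 0.00126). NtR fell by 2.06, CG42369 by 2.50 and CG17574 by 1.79. Choice of the 15 required that the ages not overlap. Separation of old from young libraries is therefore no added result in any of the 15.

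Transcripts of the mitochondrial genome fell in 6 of 13 protein-coding genes, with a median of -0.80 and none rising. Cytochrome b (mt:Cyt-b) had 40061, 42729 and 35608 CPM at day 5 and 18349.8, 11496 and 13683 CPM at day 70 (log2 fold change -1.43, SE 0.18, adjusted p = 0.00313). The subunit genes mt:CoIII and mt:ND4 fell by 1.31 and 1.23, and mt:lrRNA, the large mitochondrial ribosomal RNA, had 21779, 26945 and 20992 CPM at day 5 and 4980.3, 3215 and 3446 CPM at day 70 (log2 fold change -2.57, SE 0.20, adjusted p = 0.000765). On total counts 3 of the 13 were called. No nuclear gene of complexes I to V passed the test. At an unadjusted p below 0.05, 5 of 33 complex I genes and 8 of 12 complex V genes were lower, and DESeq2 called 1 and 3 as fallen. The complex medians were -0.43 for I, 0.24 for II, -0.40 for III, -0.44 for IV and -0.48 for V, where all 12 genes had a lower estimate. On total counts these medians were -0.033, 0.63, -0.00585, -0.047 and -0.086. In whole brain, where 3.82% of all genes fell, 26 of 33 complex I genes and 12 of 12 complex V genes did, with medians of -0.65 and -0.71. By the test of the difference in age effect from whole brain, no gene of complexes I, III, IV or V differed. Of complex II, 1 of 4 genes had a higher age effect in astrocyte-like glia. The ATP synthase gene ATPsynC had 1654, 1494 and 1393 CPM at day 5 and 1024, 873 and 1056 CPM at day 70, with no overlap between ages (log2 fold change -0.61, SE 0.16, adjusted p = 0.0589).

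In the glycolysis list 3 of 16 genes fell, enolase (Eno, -0.87), glyceraldehyde-3-phosphate dehydrogenase (Gapdh1, -0.85) and the pyruvate dehydrogenase subunit Pdha (-0.94). Lactate dehydrogenase (Ldh), which interconverts pyruvate and lactate, was the only member that rose, with 27.5, 5.69 and 23.2 CPM at day 5 and 139, 127 and 151 CPM at day 70 (log2 fold change 2.93, SE 0.50, adjusted p = 0.0126). Without day 70 replicate 3 the calls of Ldh (adjusted p 0.0546) and Eno (0.0553) were lost, that of Gapdh1 without day 70 replicate 3 or day 5 replicates 1 or 2 (up to 0.0762) and that of Pdha without any 1 library but day 70 replicate 1 (up to 0.130). Both were also lost on total counts, where the median of the list turned from -0.36 to 0.029. In whole brain Ldh went from a mean of 4.74 to 75.8 CPM, and in ensheathing glia from 8.62 to 58.0 CPM.

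Cytosolic ribosomal protein genes were called in few cases, with 2 of 87 falling, none rising and a median of -0.24 that turned to 0.16 on total counts. The 2 were RpL22, with 1898, 2034 and 1559 CPM at day 5 and 1043, 990.2 and 1068 CPM at day 70, and RpL15, with 1776, 1842 and 1513 CPM at day 5 and 1068, 1009.5 and 1101 CPM at day 70 (adjusted p = 0.0229 and 0.0360), and both calls were lost on total counts and without any 1 library but day 5 replicate 3 and day 70 replicate 1 (adjusted p up to 0.0995 and 0.133). In ensheathing glia 76 of 86 of these genes rose with age (median 0.73), where 9.41% of all genes rose. The age effect was lower in astrocyte-like than in ensheathing glia for 83 of 87 genes, with a median difference of -0.98, where 5.46% of all genes were lower. Leaving out any 1 astrocyte-like or ensheathing library, the count ranged from 67, without day 5 replicate 2, to 83. It was 78 against GMR10E12 alone and 4 against GMR56F03 alone, with medians of -1.20 and -0.77, and 29 on total counts, with a median of -0.56 where all genes had 0.46. Of 72 mitochondrial ribosomal protein genes none was called, none had an unadjusted p below 0.05 and none was called by DESeq2, and their median of -0.09 turned to 0.29 on total counts. Among 43 translation factors, with a median of -0.16 that was 0.24 on total counts, eEF1alpha2 rose (0.82) and eIF4A fell (-0.55), calls that DESeq2's size factors in edgeR ended. Both were also lost without day 5 replicates 1 or 2 or day 70 replicates 2 or 3, and that of eEF1alpha2 without day 70 replicate 1 (adjusted p up to 0.145, and 0.179 for eIF4A).

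Lipid storage and transport genes split, with 3 of 31 rising and 4 falling (median -0.02, and 0.38 on total counts). The triglyceride lipase gene brummer (bmm) had 28.3, 47.9 and 31.8 CPM at day 5 and 84.5, 104 and 102 CPM at day 70 (log2 fold change 1.43, SE 0.29, adjusted p = 0.0257). Npc2b, of the sterol-binding Niemann-Pick type C2 family, had 14.994, 40.8 and 29.1 CPM at day 5 and 70.7, 144 and 135 CPM at day 70 (log2 fold change 2.02, SE 0.42, adjusted p = 0.0267), and the lipocalin gene NLaz had 25.8, 39.8 and 60.7 CPM at day 5 and 138, 80.2 and 142 CPM at day 70 (log2 fold change 1.49, SE 0.36, adjusted p = 0.0475). On the falling side were Lsd-2, a lipid droplet coat protein gene (-1.001), the lipoprotein receptor gene LpR2 (-1.07), the fatty acid transport protein gene Fatp3 (-2.57) and Nplp2, given above. Thus a lipase and a droplet coat protein moved in opposite directions in the same libraries. Apart from Fatp3 and Nplp2, each of these calls was lost without day 70 replicate 3, with adjusted p of 0.116 for bmm, 0.106 for Npc2b, 0.170 for NLaz, 0.0648 for Lsd-2 and 0.0835 for LpR2. Further libraries whose absence ended them were day 5 replicates 1 and 3 and day 70 replicates 1 and 2 for bmm, all of day 5 and day 70 replicate 2 for Npc2b, day 5 replicates 1 and 2 and day 70 replicate 1 for NLaz, day 5 replicates 1 and 2 for Lsd-2 and day 5 replicates 1 and 3 for LpR2.

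**Figure D4:**
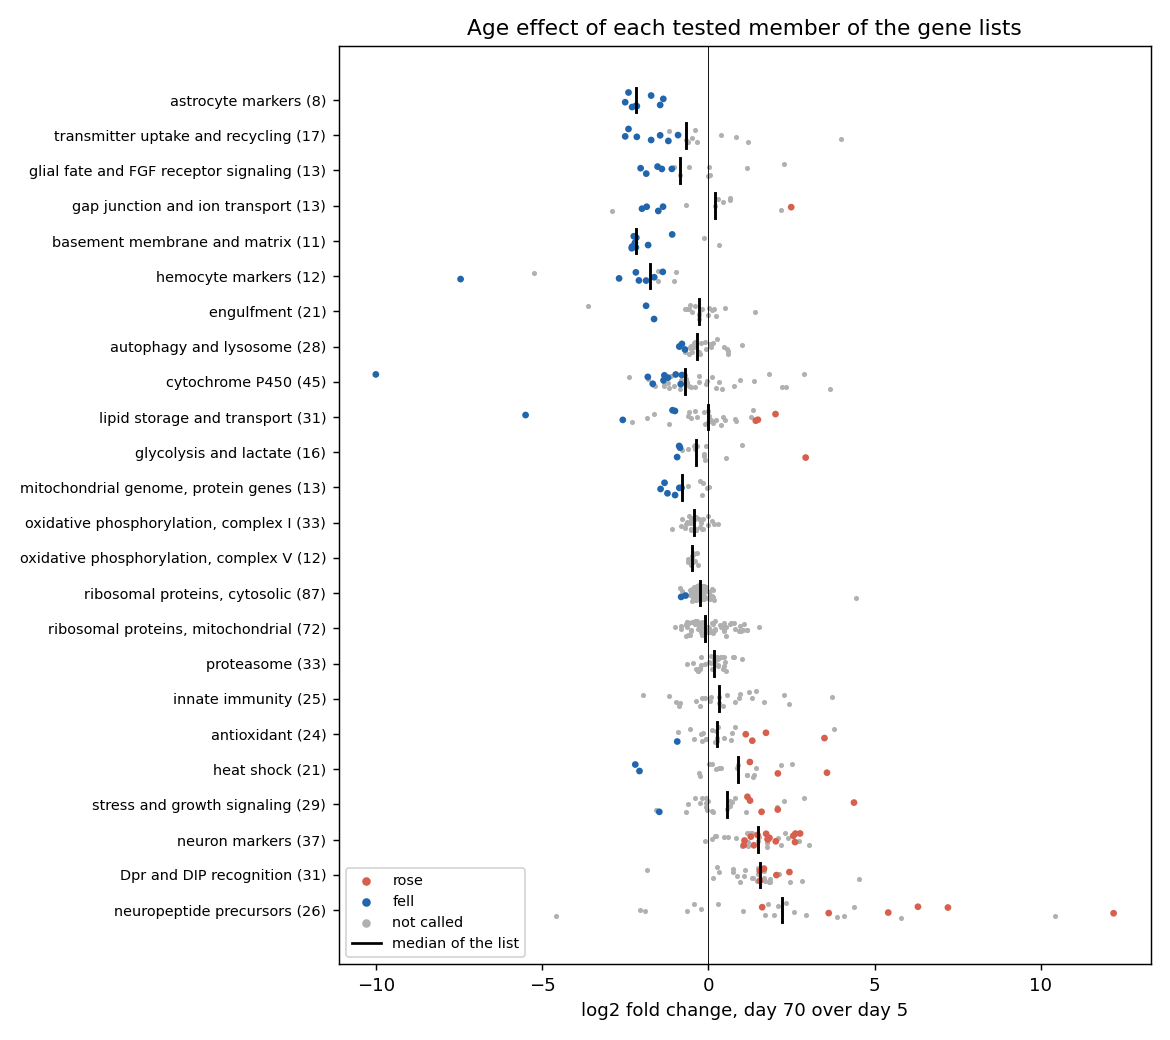
Log2 fold change of day 70 over day 5 for each tested member of 24 gene lists, with the number of tested members in brackets, a black line at the median and color for members that passed the test (orange rose, blue fell). Astrocyte markers (median -2.17) and basement membrane genes (median -2.18) lie left of 0, and neuron markers (1.51), Dpr and DIP genes (1.55) and neuropeptide precursors (2.21) right of it.

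Genes of neurons were among the main risers. Of 37 neuron markers 14 passed the test upward, none fell and 36 had a higher estimate at day 70 (median 1.51). The sodium channel gene para (chromosome X, 16455027 to 16533096) had 32.5, 27.4 and 37.4 CPM at day 5 and 165, 121 and 111 CPM at day 70 (log2 fold change 2.03, SE 0.27, adjusted p = 0.00479). The synaptic vesicle calcium sensor Syt1 had 15.8, 26.1 and 65.3 CPM at day 5 and 240.4, 219.6 and 219 CPM at day 70, the active zone gene Rim had 25.0, 39.5 and 69.7 CPM at day 5 and 369, 217 and 215 CPM at day 70, and the GABA receptor gene Rdl had 12.5, 13.7 and 25.0 CPM at day 5 and 149, 100.0 and 70.3 CPM at day 70. Their log2 fold changes were 2.62, 2.56 and 2.61, and that of the acetylcholine receptor subunit nAChRalpha7 was 2.76. These 4 calls turned on 1 young library each, with adjusted p of 0.0727, 0.0550 and 0.0518 without day 5 replicate 2 and 0.0513 without day 5 replicate 1. Another 5 of the 15 risers with the smallest adjusted p were below whole brain at both ages. The BK-type potassium channel gene slo (chromosome arm 3R, 24662491 to 24711595) had 40.8, 30.1 and 34.3 CPM at day 5 and 271, 189.6 and 174 CPM at day 70 (log2 fold change 2.61, SE 0.27, adjusted p = 0.00177), against 622 and 814 CPM in whole brain. The memory gene radish (rad) had 16.7, 8.03 and 16.5 CPM at day 5 and 144, 112 and 107 CPM at day 70 (log2 fold change 3.16, SE 0.36, adjusted p = 0.00233), and dysc (dyschronic) rose by 2.60, CG43737 by 2.42 and CG9813 by 1.39.

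Cell surface proteins of the Dpr and DIP families, which pair neurons with their partners, rose in 5 of 31 tested genes and fell in none (median 1.55). These were dpr7 (2.05), dpr1 (2.44), dpr19 (1.67), dpr14 (1.55) and dpr21 (1.55). dpr7 had 31.7, 19.1 and 34.4 CPM at day 5 and 154, 90.4 and 105 CPM at day 70, and its call stood without each library, while the other 4 were lost without all but day 5 replicate 3 (adjusted p up to 0.167).

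Neuropeptide precursor genes rose in 6 of 26 tested members of the list, with none falling and a median of 2.21. The fallen gene Nplp2 was not on this list but on the lipid list. Capa had 1 count over the 3 young libraries and 14983 over the old ones, a ratio of 6591 with a 95% counting interval of 1183 to 260359, and reached 202, 347 and 567 CPM at day 70. Myosuppressin (Ms, chromosome arm 3R, 24341551 to 24343825) had 3.33, 6.69 and 2.67 CPM at day 5 and 276, 552 and 983 CPM at day 70 (log2 fold change 7.21, SE 0.62, adjusted p = 0.00109). Allatostatin A (AstA) had 0, 0 and 1.20 CPM at day 5 and 14.8, 69.3 and 79.4 CPM at day 70, short neuropeptide F (sNPF) had 3.33, 28.1 and 68.6 CPM at day 5 and 471, 292 and 532 CPM at day 70 and spab had 54.1, 57.9 and 41.0 CPM at day 5 and 199.9, 133 and 133 CPM at day 70. The precursor proteins are cut into secreted signaling peptides. The call of sNPF was lost without day 5 replicate 2, day 70 replicate 1 or day 70 replicate 3 (adjusted p up to 0.119). Summed over 43 precursors, the level was 161 to 2673 CPM at day 5 and 3704 to 5317 CPM at day 70, or 17.3% and 61.0% of the whole brain level. The young libraries were far apart, with 161, 1040 and 2673 CPM in replicates 1, 2 and 3. The mean went up 3.57-fold with age, and without day 5 replicate 3 this was 7.68-fold and the young share 8.05%.

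The neuron markers as a list moved with these genes. Their sum was 2033 to 3875 CPM at day 5, or 10.8% of the whole brain level, and 5793 to 7657 CPM at day 70, or 30.9%. In whole brain the sum went from 23228 to 26077 to 20006 to 23437 CPM, and in ensheathing glia it was 6777 to 10821 CPM at day 5 and 6378 to 9311 CPM at day 70. No neuron marker was at 0 in a whole group. The part of this general level in the rise of single neuronal genes was not tested. In samples of many cells, more cells of a type and more RNA per cell cannot be told apart. Ensheathing glia markers summed to 4147 to 5134 CPM and 4155 to 4902 CPM, a sum in which Tsf1 had the highest level. Of the 7, 6 had a negative change (median -0.58) and 1 fell (CG9657), a call lost without day 5 replicate 1, day 5 replicate 2 or day 70 replicate 3, while DESeq2 called 3 as fallen and 1 as risen. Cortex glia markers stood at 1286 to 1719 and 773 to 991 CPM, 1.62-fold lower at day 70, and 1 of 3 fell (Cyp4g15), a call lost on total counts and without any 1 library other than day 5 replicate 3. Another of the 3 had a change of 2.35 with an unadjusted p below 0.05, and DESeq2 called 1 as risen and 1 as fallen. Surface glia markers were at 156 to 258 and 116 to 416 CPM, and of 6 none was called by edgeR while 1 was higher at an unadjusted p below 0.05 and 1 rose by DESeq2. Photoreceptor markers were at 1011 to 3551 and 1105 to 5526 CPM, ranges that overlapped, with a mean 1.95-fold higher at day 70, or 3.14-fold without day 5 replicate 2. Of 22 photoreceptor markers 2 rose (inaE and Rh3), against 4 by DESeq2 and none without day 70 replicate 2 or 3. The part of these other cell types in the changes of single genes was not tested.

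Of the 240 genes that rose, 166 had a lower mean at day 70 than old whole brain from the same flies, and 74 had a higher one, as had 26 at day 5. Of all 8585 genes tested, 4265 were above whole brain at day 5 and 4548 at day 70. Among the 313 that fell, 309 were above whole brain at day 5 and 279 still were at day 70. The calls rest on the same astrocyte-like levels, so these counts are not independent of them. Among the 74 were Arc1, Xrp1, Irbp, kay, Ldh, ImpL2, MtnA, Hsp26, Gclm, Trxr-1, bmm, Npc2b and NLaz. The neuropeptide precursor gene Capa was among them too, so the 74 were not only genes of stress and metabolism.

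**Figure D5:**
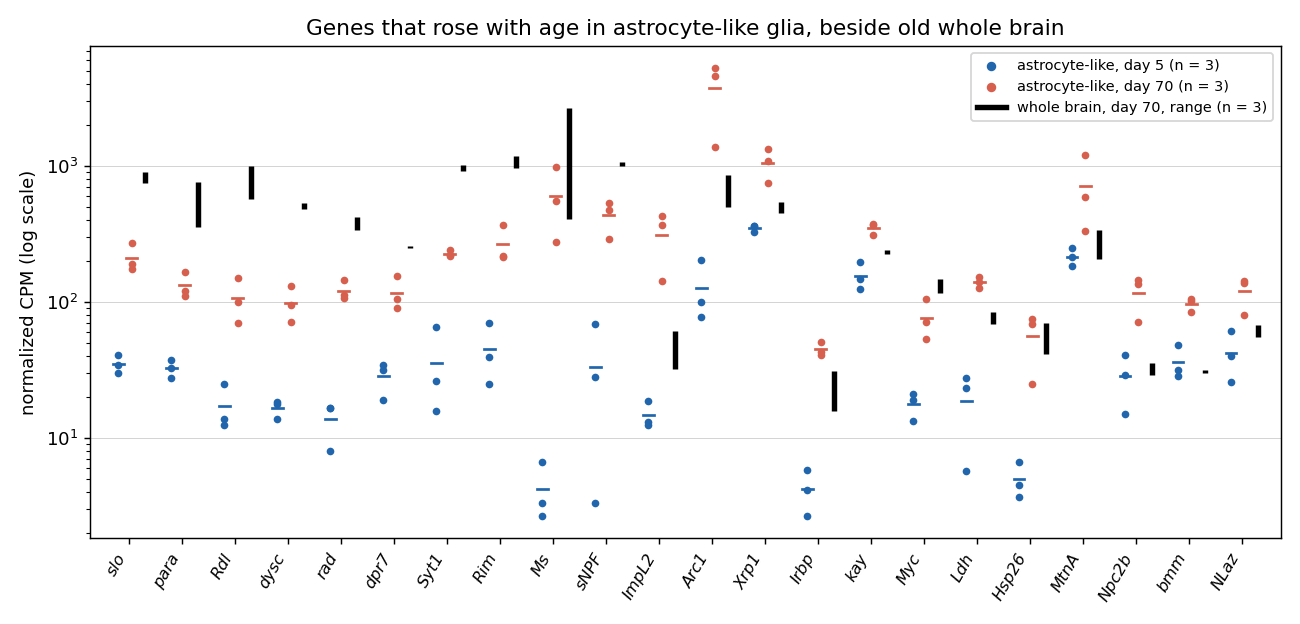
Normalized CPM (log axis) of 22 genes that rose, in 3 astrocyte-like libraries at day 5 (blue) and 3 at day 70 (orange), with means as lines, beside the range of 3 whole brain libraries at day 70 (black bars). Old astrocyte-like glia stay below whole brain for slo, with 174 to 271 CPM, and lie above it for Arc1, with 1384 to 5207 CPM, and for Xrp1, with 748 to 1334 CPM.

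Arc1 (chromosome arm 2R, 14357927 to 14360297), whose protein forms capsids that carry RNA, had 77.5, 201 and 99.2 CPM at day 5 and 1384, 5207 and 4599.9 CPM at day 70 (log2 fold change 4.89, SE 0.58, adjusted p = 0.00272). The pseudogene CR10102, its neighbor on the same strand from 14360433 to 14361780, had 22.5, 48.9 and 25.7 CPM at day 5 and 368, 1388 and 1244 CPM at day 70. Its level was 24.3% to 29.0% of that of Arc1 in each of the 6 libraries and 19.8% to 31.3% over all 36, and reads may be shared between the 2 genes, so they were not counted as separate results. Arc1 also rose in whole brain, where 2.31% of all genes did, from a mean of 79.4 to 662 CPM, and in ensheathing glia, from 92.6 to 1724 CPM. CG8620 (chromosome arm 3L, 7158099 to 7158874) went from 1 count over the 3 young libraries to 3500 over the old ones, a ratio of 1540 with a 95% counting interval of 276 to 60833. It was at 69.3, 95.8 and 116 CPM in old astrocyte-like glia, and at 103 in old whole brain and 108 in old ensheathing glia. Neither CG34265 nor CG18213 had a count at day 5. At day 70 CG34265 had 2731 counts, at least 400-fold higher, and CG18213 had 824, at least 121-fold higher.

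ImpL2, a secreted protein that binds insulin-like peptides and lowers insulin signaling, had 12.5, 13.1 and 18.8 CPM at day 5 and 428, 367 and 142 CPM at day 70 (log2 fold change 4.38, SE 0.46, adjusted p = 0.00177). In whole brain of the same flies it was at means of 380.0 and 43.8 CPM and in ensheathing glia at 177 and 71.5 CPM, both lower at day 70 without passing the test. The rise in astrocyte-like glia thus stood beside lower means with age in the other samples.

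Of 29 stress and growth signaling genes 5 rose and 1 fell (median 0.56). The bZIP factor Xrp1, induced by ribosomal and other cellular stress, had 362, 361 and 324 CPM at day 5 and 748, 1334 and 1079.8 CPM at day 70 (log2 fold change 1.603, SE 0.23, adjusted p = 0.00624). Kayak (kay), the fly Fos protein at the end of the JNK pathway, had 148, 124 and 196 CPM at day 5 and 312, 371 and 370.1 CPM at day 70 (log2 fold change 1.18, SE 0.22, adjusted p = 0.0199), and Myc had 13.3, 19.1 and 21.0 CPM at day 5 and 53.005, 105 and 71.4 CPM at day 70 (log2 fold change 2.09, SE 0.37, adjusted p = 0.0146). Scylla (scyl), an inhibitor of TOR signaling, rose by 1.26, and ImpL2 was the fifth riser. Wengen (wgn), a TNF receptor gene, had 331, 322 and 333 CPM at day 5 and 155, 86.8 and 111 CPM at day 70 (log2 fold change -1.47, SE 0.25, adjusted p = 0.0123). The call of scyl was lost without any 1 library (adjusted p up to 0.119), that of kay without day 5 replicates 1 or 2 or day 70 replicates 2 or 3 (0.0977), that of Myc without day 5 replicate 2 or day 70 replicates 2 or 3 (0.0752) and that of wgn without day 5 replicate 2 or day 70 replicate 3 (0.0673). The Ku70 gene Irbp, a DNA end-binding protein gene, had 5.83, 2.68 and 4.14 CPM at day 5 and 40.7, 50.9 and 42.7 CPM at day 70 (log2 fold change 3.47, SE 0.47, adjusted p = 0.00493).

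Heat shock genes split by family member, with 3 of 21 rising and 2 falling (median 0.89). Hsp26, a small heat shock protein gene, had 6.66, 3.68 and 4.51 CPM at day 5 and 25.0, 68.6 and 74.993 CPM at day 70 (log2 fold change 3.57, SE 0.55, adjusted p = 0.00840), and the mitochondrial chaperonin gene Hsp60A had 162, 206 and 222 CPM at day 5 and 521, 463 and 409 CPM at day 70 (log2 fold change 1.25, SE 0.21, adjusted p = 0.0109). The Hsp70 copies went apart. Hsp70Aa had 5.00, 11.7 and 20.3 CPM at day 5 and 39.8, 64.0 and 60.7 CPM at day 70 (log2 fold change 2.09, SE 0.50, adjusted p = 0.0464), whereas Hsp70Ba had 633, 552 and 588 CPM at day 5 and 134, 90.9 and 161 CPM at day 70 (log2 fold change -2.19, SE 0.24, adjusted p = 0.00226) and Hsp70Bb had 2074, 1823 and 1793 CPM at day 5 and 534, 333 and 482 CPM at day 70 (log2 fold change -2.07, SE 0.21, adjusted p = 0.00174). These copies are near-identical in sequence, and how reads that match several of them were counted can shift values between them. The rise of Hsp70Aa was lost without any 1 library other than day 5 replicate 3 (adjusted p up to 0.153), that of Hsp26 without day 70 replicate 3 (adjusted p 0.0509) and that of Hsp60A without day 5 replicate 2 (adjusted p 0.0512).

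Antioxidant genes rose in 4 of 24 tested members and fell in 1 (median 0.25). The metallothionein gene MtnA had 185, 213 and 247 CPM at day 5 and 329, 1211 and 590.1 CPM at day 70 (log2 fold change 1.74, SE 0.42, adjusted p = 0.0475), thioredoxin reductase Trxr-1 had 153, 205 and 178 CPM at day 5 and 262, 528 and 375 CPM at day 70, and Gclm, a subunit of the enzyme that makes glutathione, had 25.8, 30.5 and 24.2 CPM at day 5 and 54.5, 62.6 and 83.0 CPM at day 70. Prx2540-2, a peroxiredoxin gene, rose by 3.49, and the extracellular superoxide dismutase gene Sod3 fell by 0.93. All 5 calls were lost without at least 5 of the 6 libraries in turn, with adjusted p up to 0.150 for MtnA, 0.152 for Trxr-1, 0.210 for Gclm, 0.228 for Prx2540-2 and 0.125 for Sod3.

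Several groups had no called member. They were 12 trehalose and sugar genes (4 with an unadjusted p below 0.05, 2 called by DESeq2), 25 innate immunity genes (6 and 9), 16 cell death genes (3 and 1), 11 clock genes (2 and 1), 20 tRNA synthetase genes (4 and 3) and 33 proteasome genes (2 and 0). The medians of the sugar and cell death lists turned on total counts, from -0.25 to 0.14 and from -0.052 to 0.33. The trehalase gene Treh had 5253, 4581 and 3837 CPM at day 5 and 4227, 2604 and 3089 CPM at day 70, the NF-kappaB gene Rel had 78.3, 156 and 152 CPM at day 5 and 148, 144 and 195 CPM at day 70 and the caspase inhibitor gene Diap1 had 372, 440.4 and 329 CPM at day 5 and 441, 448 and 453 CPM at day 70. The cell death genes hid and cass, named by the study, changed by 0.28 (SE 0.79, adjusted p = 0.886) and 0.05 (SE 0.32, adjusted p = 0.951) on the log2 scale, with hid at 8.33, 10.4 and 19.0 CPM at day 5 and 9.79, 32.0 and 4.17 CPM at day 70.

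Whether these changes differed from those of other tissues was tested on the difference of the age effects. Both comparisons use the same 6 astrocyte-like libraries. Against the mean age effect of ensheathing glia of both drivers, 615 of 9592 genes (6.41%) had a higher age effect in astrocyte-like glia and 524 (5.46%) a lower one, and against GMR86E01 whole brain 278 of 9369 (2.97%) and 123 (1.31%). With the replicate number within an age as a block, taken to mark the brain pool, the second counts were 153 and 59. Against GMR56F03 alone the first count of 1139 was 241, and against GMR10E12 alone 787. The count of 401 against whole brain was 843 without day 5 replicate 3 and 142, 149, 223, 154 and 128 without whole brain day 5 replicates 1 and 3 and day 70 replicates 1, 2 and 3. Of the 240 genes that rose, 158 had a higher age effect than in ensheathing glia and 161 than in whole brain (116 with the block). Of the 313 that fell, 198 and 90 (54 with the block) had a lower one.

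Astrocyte markers fell in ensheathing glia too, 8 of 8, where 8.82% of all genes fell. The age effect was lower in astrocyte-like glia for 7 of the 8, a count that ranged from 4 to 7 with 1 library left out and was 2 on total counts and 1 in a fit of all 36 libraries. It was 4 without each of day 5 replicates 1 and 2, day 70 replicate 2 and GMR10E12 day 70 replicate 2. The difference was -1.15 (SE 0.23, adjusted p = 0.00351) for Gat and -1.55 (SE 0.23, adjusted p = 0.000616) for AANAT1. In the other direction it was 1.40 (SE 0.25, adjusted p = 0.00203) for Gdh and 0.82 (SE 0.20, adjusted p = 0.0121) for Gs1. In ensheathing glia Gdh fell, and Gs1 had means of 195 and 139.8 CPM without passing the test (adjusted p = 0.0548). For htl it was -0.99 (SE 0.19, adjusted p = 0.00252). Against 1 driver alone the difference of Gat was lost for GMR56F03 (adjusted p = 0.0559), and those of Gdh (0.0541), Gs1 (0.413) and htl (0.0574) for GMR10E12. Basement membrane genes were lower for 8 of 12 and hemocyte markers for 7 of 12, with -2.77 (SE 0.43, adjusted p = 0.000734) for Ppn, -2.30 (SE 0.42, adjusted p = 0.00204) for Col4a1 and -2.80 (SE 0.47, adjusted p = 0.00119) for Hml. Against GMR56F03 alone these counts were 2 and 3, and Col4a1 (adjusted p = 0.0858) and Hml (0.0577) no longer passed. In GMR56F03 itself both summed means were lower at day 70, from 6830 to 4171 CPM for matrix genes and from 3874 to 1734 CPM for hemocyte markers. In GMR10E12 they were higher, from 6513 to 11318 CPM and from 3365 to 4296 CPM. Young and old libraries overlapped for hemocyte markers in both drivers. Against whole brain, where 3 of 8 astrocyte markers fell with a median of -0.95, the age effect was lower for 1 of 8, with a median difference of -1.12 and with 1.31% of all genes lower. That count was 1 with the block too and 6 without whole brain day 5 replicate 2. Basement membrane genes were lower than in whole brain for 5 of 12, with the block as well, and for 8 of 13 without whole brain day 70 replicate 1. For hemocyte markers the count was 2 of 12, or 1 with the block, 5 without whole brain day 70 replicate 1, 3 without day 70 replicate 2, 1 without whole brain day 5 replicate 1 and none without whole brain day 70 replicate 3. The lysosomal protease gene CtsB1 rose in ensheathing glia and fell in astrocyte-like glia, a difference of -1.73 (SE 0.30, adjusted p = 0.00157), and the difference of Hsp70Ba was -2.18 (SE 0.25, adjusted p = 0.000175). For the ribosomal protein gene RpL22 it was -0.89 (SE 0.21, adjusted p = 0.0103), which was lost against GMR56F03 alone (adjusted p = 0.109), on total counts (0.131) and in 1 fit of all 36 libraries (0.0699).

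Neuron markers were higher for 19 of 37 against ensheathing glia and for 12 of 37 against whole brain, with none lower. The second count was 11 with the block and 26 without day 5 replicate 3. It was 5 without whole brain day 70 replicate 3 and 6 without day 70 replicate 1 or without whole brain day 5 replicate 1, day 5 replicate 3 or day 70 replicate 2. Against GMR56F03 alone the first count was 11. Single differences from ensheathing glia were 3.28 (SE 0.37, adjusted p = 0.000175) for rad, 2.75 (SE 0.30, adjusted p = 0.000175) for dpr7, 1.99 (SE 0.45, adjusted p = 0.00740) for shakB and 1.57 (SE 0.22, adjusted p = 0.000448) for Hsp60A. That of shakB was lost against GMR10E12 alone (adjusted p = 0.0567). CG18213 rose from no count in astrocyte-like glia and passed the test of the difference, and with a young group at 0 its fitted size is not a bound. Differences from whole brain were 2.21 (SE 0.27, adjusted p = 0.00223) for slo, 2.15 (SE 0.37, adjusted p = 0.0107) for para, 2.38 (SE 0.42, adjusted p = 0.0108) for Cam and 5.48 (SE 0.98, adjusted p = 0.0119) for Ms. Capa passed too, with means of 309 and 180.4 CPM in whole brain. The difference of scyl was 1.58 (SE 0.29, adjusted p = 0.0134), lost without whole brain day 70 replicate 3 (adjusted p 0.0506), and mbc differed by -1.62 (SE 0.34, adjusted p = 0.0222), lost without 6 of the 12 libraries in turn (adjusted p up to 0.0710). The difference of ImpL2 was 7.48 (SE 1.46, adjusted p = 0.0166), and with the block it was 5.92 with an adjusted p of 0.0585. It was also lost without whole brain day 70 replicate 2 (adjusted p = 0.0600) or replicate 3 (0.0522). Nplp2, at 52.3 and 116 CPM in whole brain, differed by -6.65 (SE 1.21, adjusted p = 0.0128).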

How the data were processed

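RNA of 3 libraries per age was compared, all from the deposited table of read counts per gene for 36 libraries. Per the labels and the study's methods, the authors aligned reads with STAR 2.7.3a to dm6, filtered them with SAMtools and counted those overlapping FlyBase genes. Collapsing of molecular identifiers and use of strand are not given in the sources used here, so counts may hold PCR copies. Of 17562 genes, 17498 had a position in the reference annotation. Genes with low counts were removed with filterByExpr, counts were scaled with TMM, and ages were compared with the quasi-likelihood test of edgeR 4.0.16 (R 4.3.3) with Benjamini-Hochberg adjustment, calling genes at an adjusted p below 0.05. The SE is the log2 fold change divided by the root of the F statistic and carries no information beyond the test. Differences in age effect were tested as interactions in the 18 sorted libraries and in the 12 GMR86E01 libraries. The edgeR tests of age and of both differences were tried on simulated data, and the alternatives, summed levels and counting intervals were not.

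The study states that unsorted suspensions came from the same brains. That equal replicate numbers within an age mark the same brain pool is an assumption, and a fit with that number as a block was made. Correlations of their deviations from group means were 0.0385, 0.0317 and 0.0549 at day 5 and 0.228, 0.159 and 0.0881 at day 70. No label says that replicates come from separate cultures or days, so p-values measure the spread between these libraries.

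Named are, among called genes without overlap between ages, the 15 risers and 15 fallers leading by adjusted p. The tested astrocyte markers, the called uptake genes and some of the uncalled uptake genes are given as well. Other lists give up to 5 called members in each direction or, with none called, the member with the highest level. The genes elav, repo, hid and cass are named too, and PPO1, PPO2 and drpr were added after their values were seen. Members and lists were chosen with earlier results of these data known. Alternatives were DESeq2 1.42.0, other scalings and filters, thinning, other libraries in the fit, replicate blocks and leaving out each library. Total counts and left-out comparator libraries for the differences, the alternatives for single differences, and those for summed levels, were added after seeing the data.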

Additional observations from a re-analysis of the deposited data

Results flagged for a closer look

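These genes had an age effect in astrocyte-like glia that differed from that in the comparison samples by the test of the difference itself (edgeR's quasi-likelihood test, Benjamini-Hochberg adjustment over all genes). Against ensheathing glia, the log2 difference was negative for the transporter, matrix, blood cell and lysosome genes and others named in the report, at -1.15 for Gat, -1.55 for AANAT1, -0.99 for htl, -2.30 for Col4a1, -2.77 for Ppn, -2.80 for Hml, -2.18 for Hsp70Ba, -1.73 for CtsB1 and -0.89 for RpL22. It was positive at 1.40 for Gdh, 0.82 for Gs1, 2.75 for dpr7, 3.28 for rad, 1.57 for Hsp60A and 1.99 for shakB. Against 1 driver alone, the differences of Gat, Col4a1, Hml and RpL22 were lost for GMR56F03. Those of Gdh, Gs1, htl and shakB were lost for GMR10E12. In 1 fit of all 36 libraries Gat and RpL22 were lost, and RpL22 also on total counts. For CG18213, which had no count in young astrocyte-like glia, the fitted difference was 10.03 and is no bound.

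Against GMR86E01 whole brain, the log2 difference was positive at 2.21 for slo, 2.15 for para, 5.48 for Ms, 7.48 for ImpL2, 1.58 for scyl and 2.38 for Cam, and negative at -6.65 for Nplp2 and -1.62 for mbc. With the brain-pool block the difference of ImpL2 was 5.92 with an adjusted p of 0.0585, and it was also lost without whole brain day 70 replicate 2 or 3. That of scyl was lost without whole brain day 70 replicate 3, and that of mbc without 6 of the 12 libraries in turn. For Capa, with 1 count in young astrocyte-like glia, the fitted difference was 12.93 and is no bound. A fall of Nplp2 with age is reported by the study for GMR56F03 ensheathing glia too. Both comparisons use the same 6 astrocyte-like libraries. Sums of hemocyte markers (7.99-fold lower with age, or 4.30-fold without PPO1 and PPO2) and neuron markers (2.43-fold higher) moved in these libraries as well, and their part in these differences was not tested.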

How the results depend on the processing

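The count of genes called with age, 553, was 1224 with DESeq2, 1634 with the 18 sorted libraries in 1 fit and 2226 with all 36, and 201 to 512 with 1 library left out. The difference from ensheathing glia, 1139 genes, was 241 against GMR56F03 alone (182 higher, 59 lower), where 1 called gene turned direction, and 926 to 1350 with 1 library left out. The difference from whole brain, 401 genes, was 870 with DESeq2, 786 with all 36 libraries in 1 fit, 212 with the replicate block of brain pools and 128 to 843 with 1 library left out. The causes were not tested.

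Replicate numbers of different ages mark different flies, and their deviations correlated at 0.110, 0.120 and -0.02, so they were not treated as pairs. With that replicate block 516 genes were called (255 rose, 261 fell), 407 of them among the 553, and the block left 1047 genes different from ensheathing glia. Median changes of the lists turned positive on total counts for engulfment (0.11), glycolysis (0.029), trehalose and sugar (0.14), lipid storage and transport (0.38), cell death (0.33), autophagy and lysosome (0.047), peptidases (0.25), translation factors (0.24), cytosolic (0.16) and mitochondrial ribosomal proteins (0.29), and for the last also with the replicate block (0.013). The change of hid, 0.28, was -0.079 with the replicate block and -0.89 to 0.71 with 1 library left out, negative without day 70 replicate 2. That of cass, 0.052, was -0.00293 without a filter, -8.92e-05 with the 18 sorted libraries in 1 fit and -0.25 to 0.33 with 1 library left out, negative without day 5 replicate 1 (-0.20) or day 70 replicate 1. Neither gene was called. Of the named genes called with age, 65 were called without each library in turn and 50 were not. The smallest library, with 1514977 counts, limits genes of low level most.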
